A study of Homo sapiens with 21 samples.

Results

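HMLE cells were compared between day 15 (d15) and day 10 (d10) of treatment with TGFβ, on the 3 RNA-seq libraries of each of these timepoints, 6 of the 21 libraries in the series. HMLE is an established line of human mammary epithelial cells immortalized with telomerase and the SV40 early region, and TGFβ is a cytokine that induces epithelial-mesenchymal transition (EMT) in such cells. The other libraries came from untreated cells (d0) and from days 1, 4, 7 and 20 of the same treatment, again 3 a timepoint. The pair d10 and d15 was chosen because these timepoints are the extremes of the main proliferation-linked axis of the same data, so cell cycle genes had to differ between them, and their values are given as a description. For other genes, p-values take no account of this choice of timepoints. All cells were of one line and were seeded at one starting density, and the d10 and d15 libraries differ by label only in the length of treatment. An untreated library of the same culture age is not among the samples, so days of TGFβ and days in culture cannot be told apart. The libraries are described as biological triplicates, and p-values measure the spread between these libraries. In bulk RNA, fewer cells of a kind and less RNA per cell cannot be told apart. All genes with a mean normalized value of at least 10 over the 6 libraries were included, which left 13328 of 23201 gene symbols. Of the 9873 symbols below this limit, 4756 had no read in any of the 6 libraries.

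Cells that divide switch on one set of genes to copy their DNA and another to separate the chromosomes, and cells that stop dividing lower both sets and raise inhibitors of the cyclin-dependent kinases. TGFβ is known to slow the division of epithelial cells and, over days, to lower cell-cell adhesion genes and raise genes of the cytoskeleton and the extracellular matrix. The comparison of d15 with d10 therefore holds the EMT-inducing treatment constant and asks which genes still differed between 2 late timepoints.

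The d10 libraries held 21695744 to 22245237 reads and the d15 libraries 19845160 to 22667754 reads. A value is a gene's read count scaled by the size factor of its library. Differences were taken on log2(value + 1), are given ± SE, and were tested by limma with Benjamini-Hochberg adjustment over all 13328 genes. Between libraries of the same timepoint, the root mean square log2 difference was 0.239 to 0.244 for d10 and 0.208 to 0.217 for d15, and it was 0.987 between the means of both timepoints. Outside this comparison, one d7 library stood apart from the other d7 libraries by 0.457 and 0.472. At an adjusted p under 0.05, 5516 genes (41.4%) were higher and 5557 (41.7%) lower at d15, so most genes of any kind passed. The libraries of both timepoints did not overlap in 41.6% of genes with d15 above d10 and in 42.1% with d15 below, so no overlap is common too. With a change of at least 2-fold, 1646 genes (12.3%) were higher and 1353 (10.2%) lower. These shares are the background for each gene list below, and "higher" or "lower" counts refer to the adjusted p alone unless a fold is named. Under this limit rises reached further than falls: 165 genes rose and 49 fell by at least 3 on the log2 scale. The limit is on the mean of the 6 libraries, so a scarce gene could pass it through one timepoint alone. At most 3 reads in every library were found for 43 genes at d10 only and for 6 at d15 only. With a filter at a mean of 50, 1060 genes were higher and 1183 lower by at least 2-fold. The 10 most abundant genes took 8.56% to 8.77% of the signal at d10 and 10.45% to 10.61% at d15.

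The strip plot of 25 gene lists shows how the changes were arranged. Genes of DNA replication, mitosis, ribosome assembly and the proteasome lay almost wholly on the lower side, tested histone and collagen genes mostly on the higher side, and EMT transcription factors and mesenchymal markers around 0.

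**Figure D1:**
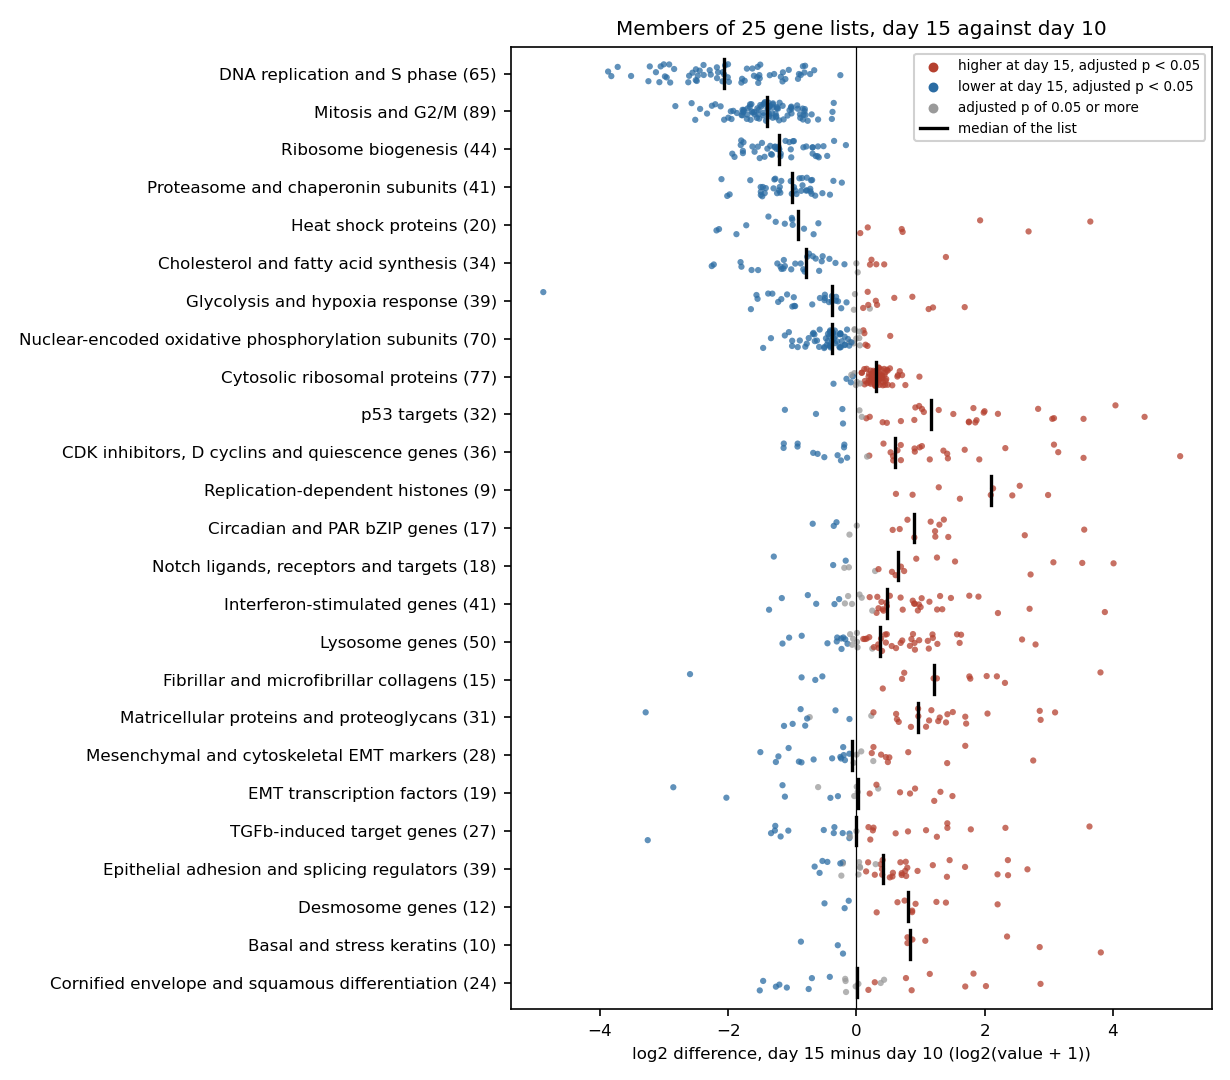
Each point is 1 gene of the list named on the left (number of genes tested in brackets), placed by its log2 difference between d15 and d10, with 3 libraries a timepoint; red and blue points passed an adjusted p under 0.05, grey points did not, and the black bar is the median of the list. The median is -2.06 for DNA replication and S phase, -1.39 for mitosis and G2/M, 1.20 for fibrillar and microfibrillar collagens and -0.08 for mesenchymal and cytoskeletal EMT markers. For the replication and mitosis lists the colours restate the choice of timepoints.

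Cell cycle genes differed by the choice of timepoints. Their adjusted p-values colour the strip plot and enter the ranking of the largest falls, but nothing is read from these p-values. All 65 genes of DNA replication and S phase had lower values at d15, 56 of them by at least 2-fold, with a median log2 fold change of -2.06 against -0.01 over all genes tested. The log2 fold changes ran from -3.87 for MCM10, which loads DNA polymerase onto opened origins, to -0.25. The value of RRM2, the regulated subunit of ribonucleotide reductase, was 7820.2, 7536 and 7699 at d10 and 779, 800.5 and 849 at d15, a log2 fold change of -3.25 ± 0.03 (SE, 3 libraries a timepoint). Every d15 library was below every d10 library. CLSPN, a mediator of the replication checkpoint, went from 1127, 1044 and 1171 at d10 to 102, 81.4 and 69.4 at d15, a log2 fold change of -3.72 ± 0.09. E2F1, a transcription factor that drives S-phase genes, fell too (-3.52 ± 0.10), and MCM10 had values of 1101, 1017 and 1077 at d10 and 67.3, 78.7 and 69.4 at d15. The helicase subunit MCM2 (-2.45 ± 0.04) and the late G1 cyclin gene CCNE2 (-2.39 ± 0.11) had values of 3689, 3609.9 and 3702 at d10 and 696, 664 and 658 at d15 for MCM2 and of 357, 339 and 358 at d10 and 57.1, 65.1 and 78.7 at d15 for CCNE2. PCNA, the sliding clamp of DNA polymerases, fell less, from 3849, 3562 and 3498 at d10 to 1214, 1304 and 1250.3 at d15, a log2 fold change of -1.53 ± 0.04. None of the 65 genes overlapped between the timepoints, against 42.1% of all genes below without overlap, a share from which nothing is read for genes that the choice of timepoints rests on.

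All 89 genes of mitosis and G2/M had lower values at d15 too, 73 of them by at least 2-fold, with a median log2 fold change of -1.39 and a range from -2.83 to -0.35. The marker of dividing cells MKI67 had values of 10829, 11607 and 11427 at d10 and 3385, 3226 and 3261 at d15, a log2 fold change of -1.78 ± 0.03. Values of CCNB1, the cyclin of mitotic entry, were 6936, 7149 and 7073 at d10 and 2191, 2192 and 2284 at d15, and of its kinase CDK1 3568, 3538 and 3552 at d10 and 1254, 1185 and 1283 at d15. PLK1, a kinase of spindle assembly, went from 3781, 3737 and 3795 at d10 to 1489, 1446 and 1456 at d15, a log2 fold change of -1.36 ± 0.03. None of these 4 genes overlapped between the timepoints, against 42.1% of all genes below without overlap. Nothing is read from this for genes that the choice of timepoints rests on. The members that fell most were the centromere genes CENPI (-2.83 ± 0.08) and CENPK (-2.44 ± 0.06), MYBL2 (-2.57 ± 0.04), a transcription factor of late S phase and G2, and SPC25 (-2.52 ± 0.08), a subunit of the outer kinetochore. TOP2A, which untangles chromosomes, fell less than most, with values of 12188, 12694 and 12144 at d10 and 7277, 7197 and 7372 at d15, a log2 fold change of -0.76 ± 0.02. Transcripts of the S-phase list fell to 32716 to 33399 in summed value at d15 from 123970 to 126106 at d10, and those of the mitosis list to 106232 to 109484 from 259720 to 263579.

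The promoters of both lists are shown because their members moved together and cell cycle genes are known to carry short shared motifs. Promoters are the 300 bases around the first start listed for a gene by RefSeq on GRCh38.p14, 250 before and 50 after the start, a build other than that of the expression values, which carry no coordinates. The last 200 bases before the start are printed for the named genes with the largest falls that hold the motifs there. Capitals mark the cell cycle homology region (CHR, TTTGAA or TTCGAA) and CCAAT in the mitosis genes, and E2F motifs (TTT, then 2 letters that are each C or G, then CGC) in the S-phase genes, each searched on both strands. In MKI67 a CHR and a CCAAT match on the other strand share 1 letter. Sequences are given 5′ to 3′ on the strand of the gene.
MKI67 (chr10:128126424-128126623, minus strand): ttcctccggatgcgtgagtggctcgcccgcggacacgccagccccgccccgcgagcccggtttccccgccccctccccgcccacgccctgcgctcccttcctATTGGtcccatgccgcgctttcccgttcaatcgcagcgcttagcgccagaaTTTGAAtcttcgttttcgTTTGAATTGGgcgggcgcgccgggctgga
CDK1 (chr10:60778131-60778330, plus strand): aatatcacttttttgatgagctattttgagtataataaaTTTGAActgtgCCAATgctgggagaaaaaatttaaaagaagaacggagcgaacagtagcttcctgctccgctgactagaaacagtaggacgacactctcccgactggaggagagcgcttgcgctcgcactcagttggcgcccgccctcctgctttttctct
PLK1 (chr16:23678689-23678888, plus strand): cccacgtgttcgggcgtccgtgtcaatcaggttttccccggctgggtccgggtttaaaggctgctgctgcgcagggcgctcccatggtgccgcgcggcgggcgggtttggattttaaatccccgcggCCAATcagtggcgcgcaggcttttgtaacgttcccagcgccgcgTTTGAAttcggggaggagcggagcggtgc
E2F1 (chr20:33686386-33686585, minus strand): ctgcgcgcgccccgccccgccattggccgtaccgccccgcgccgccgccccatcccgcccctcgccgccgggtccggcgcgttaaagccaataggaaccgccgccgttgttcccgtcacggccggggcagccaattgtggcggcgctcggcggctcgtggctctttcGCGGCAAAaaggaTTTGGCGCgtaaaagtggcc
PCNA (chr20:5126623-5126822, minus strand): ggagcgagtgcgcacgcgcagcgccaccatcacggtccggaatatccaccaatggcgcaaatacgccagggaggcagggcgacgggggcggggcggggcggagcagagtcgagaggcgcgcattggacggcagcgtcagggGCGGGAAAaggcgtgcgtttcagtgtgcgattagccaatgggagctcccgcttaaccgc

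A promoter was listed for 76 of the 89 mitosis genes and 54 of the 65 S-phase genes. The CHR letters occurred in 52 mitosis promoters (68.4%) and in 4 S-phase promoters (7.41%), against 1012 of the 9235 promoters matched to genes tested and 16.6% of all 27305 promoters in the table. The E2F letters occurred in 25 S-phase promoters (46.3%) and 6 mitosis promoters (7.89%), against 5.3% of promoters of genes tested and 3.33% of all. CCAAT was found in 71.1% of mitosis and 59.3% of S-phase promoters, against 36.6% and 35.7% of the same backgrounds. A match describes the letters in this window and no binding.

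CDK inhibitors, D cyclins and quiescence genes, a list that holds genes for and against division, were more often higher than lower. Of the 36 tested, 23 were higher and 12 lower, with 12 higher and 2 lower by at least 2-fold and a median log2 fold change of 0.61. The list is tied to cell division, by which the timepoints were chosen, so its calls and lack of overlap are given as a description. CDKN1A, which encodes the CDK inhibitor p21, had values of 2642, 2903 and 2682 at d10 and 23139.9, 22797 and 23650.4 at d15, a log2 fold change of 3.08 ± 0.03. CDKN1C, the gene of the related inhibitor p57, was scarce at d10 and not at d15, with values of 8.96, 12.6 and 6.84 at d10 and 349, 342 and 321 at d15, a log2 fold change of 5.05 ± 0.17. Both genes stood apart without overlap, and CDKN1B, the third gene of that family, rose by less than 2-fold (0.91 ± 0.04). BTG2, an antiproliferative gene, had values of 217, 201 and 182 at d10 and 2388, 2329.9 and 2286 at d15, a log2 fold change of 3.54 ± 0.05. FOXO1, a transcription factor active when growth factor signalling is low, rose from 108, 120.5 and 103 at d10 to 1049, 991 and 919.9 at d15, a log2 fold change of 3.15 ± 0.07. CCND1 (-1.14 ± 0.03), the cyclin of early G1, and RBL1 (-1.13 ± 0.07), a relative of the retinoblastoma gene, were the 2 members that fell at least 2-fold.

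Of 32 p53 target genes, 26 were higher and 4 lower, 18 higher by at least 2-fold, with a median log2 fold change of 1.17. The SV40 large T antigen of this line is known to bind p53, and the list is named for its members' known regulator only. GDF15, a secreted stress cytokine, had values of 26.9, 26.2 and 23.5 at d10 and 614, 569.8 and 605 at d15, a log2 fold change of 4.49 ± 0.11. Values of TP53INP1, a p53-induced regulator of autophagy and cell death, were 125, 145 and 112 at d10 and 1989, 2159 and 2164 at d15, a log2 fold change of 4.04 ± 0.07. MDM2, the ubiquitin ligase for p53, had 987, 959 and 982 at d10 and 3354, 3349 and 3179 at d15, a log2 fold change of 1.75 ± 0.03. Every d15 library of these genes lay above every d10 library. The 4 lower members were AEN (-1.12 ± 0.04), TP53I3 (-0.63 ± 0.04), TNFRSF10A (-0.22 ± 0.06, which did not pass with all 21 libraries in the fit) and PMAIP1 (-0.21 ± 0.05). CDKN1A and BTG2 belong to both lists, and their values are a description here too.

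Replication-dependent histone genes, whose canonical transcripts carry no poly(A) tail, were mostly scarce. Of 42 in the list, 33 were under the limit of 10 and 20 had at most 3 reads in every one of the 6 libraries, among them HIST1H4C. All 9 that could be tested were higher at d15, 7 by at least 2-fold, with a median log2 fold change of 2.10. The limit is on the mean of the 6 libraries, so a scarce gene could pass it through d15 alone, and this count and median describe the genes that passed and not the list. Without the limit 38 were tested, of which 12 were higher and 1, HIST2H2AC, lower, with a median of 0.63. With a pseudocount of 10 the 9 genes had a median of 1.20. HIST1H2BD had values of 37.8, 45.7 and 33.2 at d10 and 324, 301 and 315 at d15, a log2 fold change of 2.99 ± 0.12. HIST1H2AC had values of 53.7, 70.0 and 59.6 at d10 and 345, 327 and 324 at d15. HIST2H2BE had values of 51.8, 39.8 and 36.2 at d10 and 176, 193 and 195 at d15. HIST1H2BN had 7 reads in all at d10 and 56 at d15, a ratio of 8.01 (95% exact interval 3.64 to 20.8, counting error only). Reads of near-identical histone genes can be shared between copies. How RNA was selected for the libraries is not given in the sources used here.

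TERT, the catalytic subunit of telomerase, was among the 12 largest falls. Its values were 19307, 19111 and 18788 at d10 and 1173, 1213 and 1219 at d15, a log2 fold change of -3.99 ± 0.03. The cells were immortalized with this gene, and reads of the introduced and the endogenous copy cannot be told apart. Mean TERT values before d10 were 7063 in untreated cells and 14520, 7121 and 6688 on days 1, 4 and 7, and the d20 mean was 14740, which left d10 highest and d15 lowest of the 7 timepoints.

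The other large falls were of mixed kinds. ANGPTL4, a secreted inhibitor of lipoprotein lipase, fell most, with values of 2221, 2005 and 2007 at d10 and 62.2, 70.5 and 75.6 at d15, a log2 fold change of -4.89 ± 0.07. FAM111B, a protease gene, had values of 1134, 1161 and 1234 at d10 and 35.7, 37.1 and 54.9 at d15, a log2 fold change of -4.78 ± 0.11. TFPI2, an inhibitor of matrix-degrading serine proteases, had values of 369, 340.1 and 379 at d10 and 15.3, 12.7 and 10.4 at d15. The 12 were picked among genes without overlap, so by that rule no d15 library reached a d10 library in these genes. MYH15 (-4.62 ± 0.16) encodes a myosin heavy chain, NAV3 (-4.42 ± 0.17) a neuron navigator protein, APLN (-4.11 ± 0.24) the peptide apelin and CSF2 (-4.33 ± 0.26) the cytokine GM-CSF. UCA1 (-4.02 ± 0.08) is a noncoding RNA, and the loci LOC100216001 (-4.02 ± 0.12) and LOC100287036 (-3.98 ± 0.46), MCM10 and TERT complete the 12.

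Among the 12 largest rises, INPP5D was by far the most abundant. It encodes SHIP1, a phosphatase of phosphoinositides best known from blood cells, and its values were 91.6, 115 and 99.7 at d10 and 7135, 7096 and 7145 at d15, a log2 fold change of 6.12 ± 0.06. PRODH, which starts the breakdown of proline, had values of 5.97, 4.86 and 2.93 at d10 and 551, 535 and 574 at d15, a log2 fold change of 6.67 ± 0.18. KDR, a receptor for VEGF, rose from 1.99, 3.89 and 2.93 at d10 to 273, 263 and 253 at d15, a log2 fold change of 6.10 ± 0.22. The 12 rises were picked among genes without overlap too, so by that rule the d15 libraries lay above d10 in all 3 genes. BEST2 (6.06 ± 0.22), a chloride channel, SCNN1G (5.23 ± 0.24), a subunit of the epithelial sodium channel, and VIPR1 (5.19 ± 0.15), a receptor for vasoactive intestinal peptide, were also scarce at d10. NCRNA00086 and USH1G, a scaffold protein of sensory cells, had no read at d10 and values of 186.7, 199.9 and 207.2 and of 63.2, 61.5 and 54.9 at d15, which makes them at least 66.3-fold and 20.1-fold higher against a floor of 3 reads per library. Few reads at d10 leave wide intervals for the others. RTN1, a reticulon of the endoplasmic reticulum, had 2 reads at d10 and 231 at d15, a ratio of 116.0 (95% exact interval 31.7 to 961.0, counting error only here and below). LEMD1 had 2 and 208 reads (28.5 to 866.0-fold), FP588 3 and 213 reads (24.0 to 348.0-fold), and EDN2, which encodes endothelin-2, 5 and 308 reads (26.2 to 191.0-fold).

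The plot of 12 genes over the time course sets these against EMT hallmarks. RRM2, MKI67, TERT and HSPA8 were lowest at d15, CDKN1A, INPP5D, KRT17 and LOX were highest there, which for cell cycle genes restates how the timepoints were chosen, and VIM, FN1 and CDH2 had log2 fold changes of 0.24, -0.11 and -0.04 between d10 and d15.

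**Figure D2:**
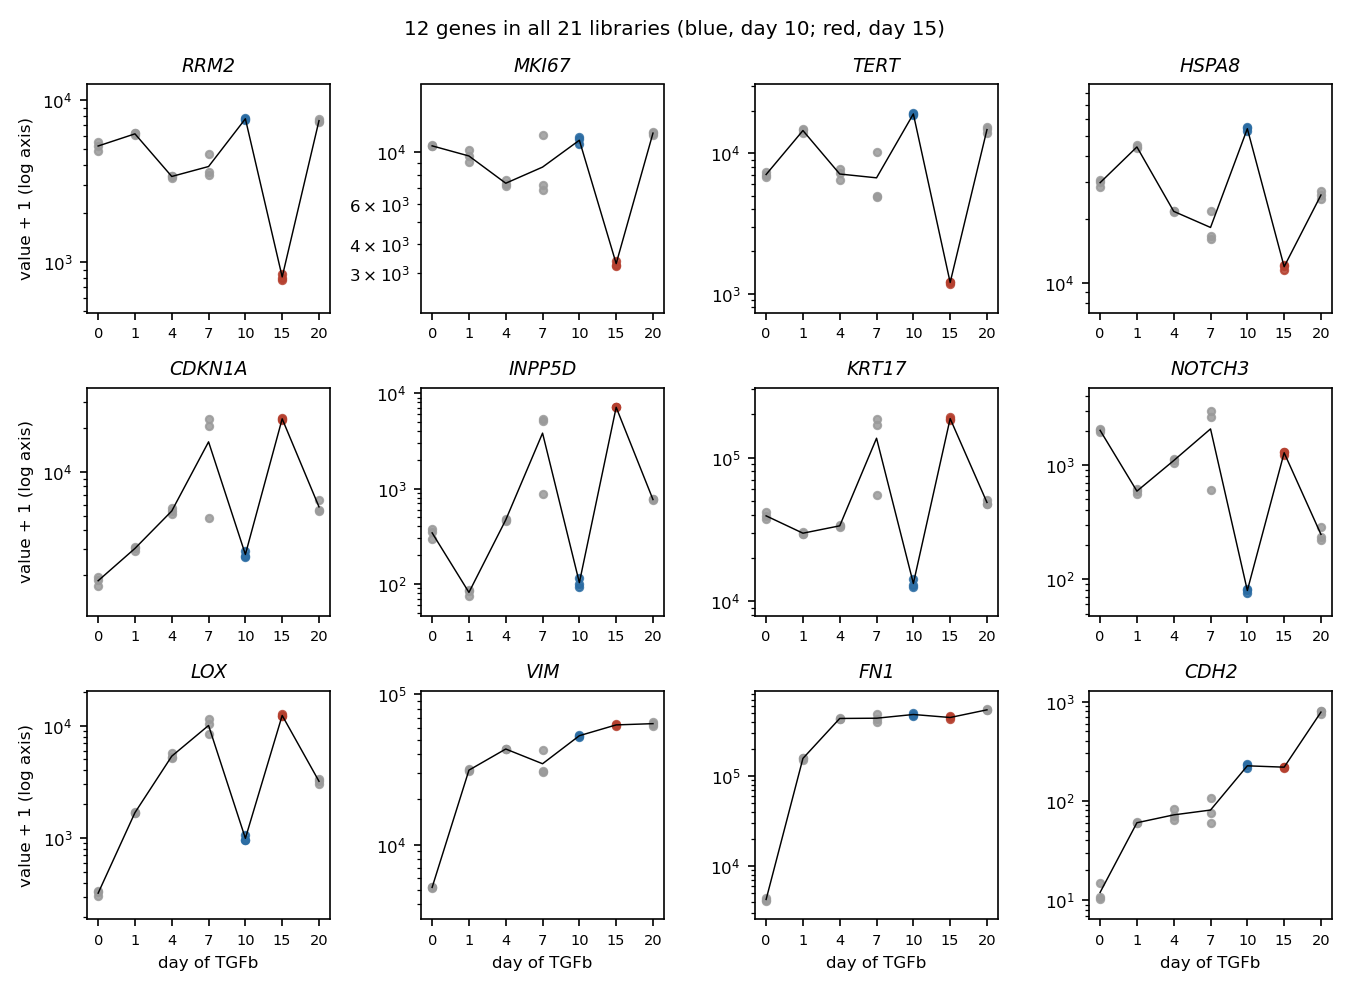
Points are the normalized value plus 1 of each of the 3 libraries at each day of TGFβ, on a log axis, and the line joins the means; d10 is blue, d15 red and the other days grey. RRM2 went from a mean of 7685 at d10 to 810 at d15 and CDKN1A from 2742 to 23196, while CDH2 had 224 and 217; 1 library of d7 stands away from the other 2 in several genes.

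Genes for building ribosomes and subunits of the proteasome and of chaperonins were lower at d15. All 44 ribosome biogenesis genes fell, 29 by at least 2-fold, with a median log2 fold change of -1.21. Relative to d0, the list median was highest of all timepoints at d10 (0.50) and lowest at d15 (-0.66). Its tie to the proliferation-linked axis, by which the timepoints were chosen, was not tested, so its calls are given as a description. NCL, the major nucleolar protein nucleolin, had values of 28009.6, 27330.5 and 28316 at d10 and 9654, 10343 and 10125 at d15, a log2 fold change of -1.47 ± 0.03. The nucleolar genes NOP56 (-1.80 ± 0.03), MRTO4 (-1.94 ± 0.04) and RRS1 (-1.90 ± 0.06) and the importin gene IPO4 (-1.81 ± 0.04) fell most, and the rRNA methyltransferase FBL (-0.60 ± 0.03) fell less than 2-fold. Cytosolic ribosomal proteins went the other way: 68 of 77 were higher and 4 lower, none by 2-fold, with a median log2 fold change of 0.31. RPLP0 had values of 44424, 44469.6 and 44553 at d10 and 56701, 55856 and 57623 at d15, a log2 fold change of 0.35 ± 0.02, and RPL13A (0.98 ± 0.03) and RPS19 (0.76 ± 0.02) rose most, whereas RPS26 (-0.36 ± 0.04) and RPL35 (-0.16 ± 0.02) fell. RPS15 (-0.09 ± 0.03) and RPL27 (-0.06 ± 0.02) also passed as lower but turned to 0.10 under quantile normalization and to 0.01 with equal library totals, respectively. Ribosomal protein genes have many processed copies that can share their reads.

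All 41 proteasome and chaperonin subunits fell, 21 by at least 2-fold, with a median of -1.01. Relative to d0, this list median too was highest at d10 (0.32) and lowest at d15 (-0.69). Its tie to the proliferation-linked axis was not tested either, and its calls are a description. PSMD2, a subunit of the proteasome's regulatory particle, had values of 26366, 26922 and 26671 at d10 and 6439, 5985 and 6157 at d15, a log2 fold change of -2.11 ± 0.03. Its neighbour in that particle, PSMD1 (-2.02 ± 0.03), the mitochondrial co-chaperonin HSPE1 (-1.98 ± 0.05) and the cytosolic chaperonin subunits CCT5 (-1.66 ± 0.02) and CCT2 (-1.49 ± 0.03) fell with it. The 20 heat shock proteins split: 13 were lower and 7 higher. HSPA8, the constitutive HSP70, had values of 54893, 52633 and 54778 at d10 and 12024, 11516 and 12192 at d15, a log2 fold change of -2.18 ± 0.02. HSP90AA1, a cytosolic HSP90, had values of 39389, 38592 and 38844 at d10 and 8608, 9077 and 8746 at d15, a log2 fold change of -2.14 ± 0.02. By contrast, 3 small heat shock proteins rose by at least 2-fold. HSPB1 had values of 3690.2, 4098 and 3666 at d10 and 26039, 23238 and 24372 at d15, a log2 fold change of 2.68 ± 0.04. CRYAB had values of 57.7, 56.4 and 54.8 at d10 and 739.6, 721 and 691 at d15, a log2 fold change of 3.65 ± 0.08. HSPB8 was the third (1.93 ± 0.18). Neither direction overlapped between timepoints in these genes.

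Of 34 genes of cholesterol and fatty acid synthesis, 27 were lower and 5 higher, 13 lower and 1 higher by at least 2-fold, with a median of -0.79. HMGCS1, an early enzyme of the mevalonate pathway, had values of 9015, 8982 and 8892 at d10 and 1889, 1821 and 1911 at d15, a log2 fold change of -2.26 ± 0.03. FDPS, which makes farnesyl diphosphate, had 10543, 10768 and 10595 at d10 and 2311, 2246 and 2261 at d15, a log2 fold change of -2.23 ± 0.03. FASN, the fatty acid synthase, had values of 32414, 32782 and 31663 at d10 and 9766, 9035 and 9137 at d15, a log2 fold change of -1.79 ± 0.03. TM7SF2, a sterol reductase, was the member that rose 2-fold, from a mean of 33.3 ± 4.19 to 89.9 ± 16.1 (SD). Of 39 genes of glycolysis and the hypoxia response, 26 were lower and 10 higher, with LDHA at 27159.7, 26896 and 26616 at d10 and 8405, 8753 and 8604 at d15, a log2 fold change of -1.65 ± 0.02, and PGK1 at -1.56 ± 0.03. Of the 70 nuclear-encoded subunits of oxidative phosphorylation, 57 were lower and 5 higher, but 6 lower by 2-fold, with a median of -0.37 that was -0.23 under quantile normalization. The largest falls in that list were ATP5G1 (-1.46 ± 0.04) and NDUFA9 (-1.33 ± 0.03). The 15 mitochondrially encoded genes are not analysed here.

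EMT transcription factors and mesenchymal markers moved in both directions, as did all genes tested, of which 41.4% were higher and 41.7% lower. Of 19 tested EMT transcription factors, 8 were higher and 6 lower with a median log2 fold change of 0.02. Of 28 mesenchymal and cytoskeletal markers 10 were higher and 14 lower with a median of -0.08. SNAI2, the abundant EMT factor of these cells, had values of 5953, 5881 and 6260.1 at d10 and 5843, 5898 and 5917 at d15, a log2 fold change of -0.03 ± 0.03, which did not pass (adjusted p = 0.23), and its libraries overlapped. Under quantile normalization SNAI2 passed in the other direction, at 0.14 (limma, adjusted p = 3.53e-05). SNAI1 had at most 3 reads in each of the 6 libraries. ZEB1 had values of 175, 204 and 175 at d10 and 227, 223 and 189.6 at d15, a log2 fold change of 0.21 ± 0.09, with overlapping libraries and an adjusted p of 0.042 that was over the threshold when either d10 library at 175 or either of the d15 libraries at 227 and 223 was left out. ZEB2 rose from 45.8, 43.7 and 52.8 at d10 to 110.2, 122 and 102 at d15, a log2 fold change of 1.21 ± 0.14. TWIST1 rose from 184, 200.2 and 199 at d10 to 295, 321 and 321 at d15, a log2 fold change of 0.68 ± 0.08. HMGA2, a chromatin protein induced by TGFβ, fell from 8614, 8187 and 8817 at d10 to 2039, 2081 and 2153 at d15, a log2 fold change of -2.03 ± 0.03. SOX9 fell from 954, 848 and 983 at d10 to 128, 121 and 133 at d15, a log2 fold change of -2.86 ± 0.07. TWIST2 (-1.15 ± 0.09) and ETS1 (-1.12 ± 0.03) were the other members lower by 2-fold, and FOXQ1 (1.31 ± 0.25) and SNAI3, with 6.97, 2.92 and 4.89 at d10 and 13.3, 11.8 and 21.8 at d15 for SNAI3, rose with ZEB2. SNAI3 did not pass under quantile normalization (0.74, adjusted p = 0.082).

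VIM, the intermediate filament vimentin, had values of 53111, 53721 and 52325 at d10 and 63569, 61705 and 62524 at d15, a log2 fold change of 0.24 ± 0.02, a small rise without overlap. FN1, fibronectin, had 465984, 496034 and 474206 at d10 and 456887, 444143 and 429087 at d15, a log2 fold change of -0.11 ± 0.03, a 1.08-fold change without overlap that was 0.00 under quantile normalization. CDH2, N-cadherin, had 211, 234 and 228 at d10 and 216, 215 and 221 at d15, a log2 fold change of -0.04 ± 0.08 (adjusted p = 0.62). The markers that did rise by 2-fold were PDGFRB, a growth factor receptor of mesenchymal cells, with 19.9, 21.4 and 13.7 at d10 and 135, 129 and 119 at d15, the matrix protein POSTN (1.70 ± 0.06) and the protease MMP2 (1.42 ± 0.04). CDH11 (-1.22 ± 0.04), NT5E (-1.26 ± 0.03), GREM1 (-1.06 ± 0.10) and NCAM1 fell by 2-fold, NCAM1 with values of 13.9, 17.5 and 14.7 at d10 and 4.08, 6.33 and 4.14 at d15. Of 27 TGFβ-induced target genes, 13 were higher and 12 lower with a median of -0.00, against 41.4% and 41.7% of all genes. TGFBI, a secreted matrix protein, had values of 141041, 143158 and 140578 at d10 and 302521, 301658 and 297233 at d15, a log2 fold change of 1.09 ± 0.02. PMEPA1 had values of 13949, 13649.7 and 13805 at d10 and 11103, 10847 and 10666 at d15, a log2 fold change of -0.34 ± 0.02. ADAM12 fell most (-3.26 ± 0.15), and LOX (3.63 ± 0.04), TAGLN (2.32 ± 0.04) and JUNB (1.78 ± 0.03) rose most.

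Fibrillar and microfibrillar collagens were mostly higher at d15: 11 of 15 were higher and 4 lower, 8 higher and 1 lower by at least 2-fold, with a median of 1.20 that was 0.75 with a filter at a mean of 50. COL1A1 had values of 3791, 4089 and 3829 at d10 and 9567, 9648 and 8737 at d15, a log2 fold change of 1.25 ± 0.03. COL6A1 had 94.5, 114 and 102 at d10 and 514, 532 and 506 at d15, a log2 fold change of 2.32 ± 0.08. COL6A2 had values of 27.9, 36.9 and 31.3 at d10 and 142, 155 and 150.2 at d15. All d15 libraries of these lay above d10. The cartilage collagen COL2A1 rose from 10.9, 7.77 and 14.7 at d10 to 166, 158 and 168 at d15, a log2 fold change of 3.81 ± 0.19, and COL1A2 (1.76 ± 0.13), COL3A1 (2.03 ± 0.26), COL5A1 (1.78 ± 0.20) and COL5A2 (1.20 ± 0.03) followed. COL8A1, a short-chain collagen, fell from 995, 1032 and 957 at d10 to 176, 156 and 158 at d15, a log2 fold change of -2.60 ± 0.06, and COL6A3 (-0.86 ± 0.09), COL12A1 (-0.64 ± 0.03) and COL5A3 (-0.53 ± 0.16) fell less than 2-fold. Matricellular proteins and proteoglycans rose in 21 of 31 genes and fell in 8, with a median of 0.96. Elastic fibre protein FBLN5 had values of 123, 154 and 130.1 at d10 and 1216, 1158 and 1121 at d15, a log2 fold change of 3.10 ± 0.07. The proteoglycan BGN had values of 45.8, 40.8 and 37.2 at d10 and 315, 308 and 291 at d15, a log2 fold change of 2.86 ± 0.11. The hyaluronan synthase HAS2 fell and had values of 42.8, 32.1 and 36.2 at d10 and 2.04, 3.62 and 3.11 at d15. THBS1, thrombospondin-1, fell from 138095, 139899 and 140505 at d10 to 67398, 62331 and 61586 at d15, a log2 fold change of -1.13 ± 0.03. TNC rose from 1798, 1899.7 and 1706 at d10 to 3862, 4275 and 4013 at d15, a log2 fold change of 1.17 ± 0.04. Of 19 collagen crosslinking and processing enzymes, 11 were higher and 4 lower with a median of 0.30. LOX, which crosslinks collagen and elastin, had values of 952, 1072 and 953 at d10 and 12729, 12142 and 12104 at d15, a log2 fold change of 3.63 ± 0.04, P4HA2, a prolyl hydroxylase, rose (1.29 ± 0.03), and PLOD2, a lysyl hydroxylase, fell (-0.89 ± 0.03).

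Epithelial genes were on balance higher at d15. Of 39 genes of epithelial adhesion and its splicing regulators, 26 were higher and 6 lower, 8 higher and 0 lower by at least 2-fold, with a median of 0.41. CDH1, E-cadherin, had values of 3618, 3689 and 3855 at d10 and 6468, 6395 and 6149 at d15, a log2 fold change of 0.77 ± 0.03. The epithelial splicing regulator ESRP1 had values of 2365, 2499 and 2449 at d10 and 4319, 4092 and 4261 at d15, a log2 fold change of 0.79 ± 0.03. The tight junction gene CLDN1 rose from 48.8, 34.0 and 32.3 at d10 to 234, 256 and 246 at d15, a log2 fold change of 2.67 ± 0.14. The receptor ERBB3 rose from 79.6, 95.2 and 95.8 at d10 to 464, 459 and 477 at d15, a log2 fold change of 2.36 ± 0.09, and OVOL1 (1.45 ± 0.18), GRHL3 (2.36 ± 0.30) and MUC1 (2.20 ± 0.20) rose from low levels. EPCAM (-0.21 ± 0.06), ESRP2 (-0.53 ± 0.04), OVOL2 (-0.65 ± 0.17), TJP1 (-0.58 ± 0.03) and ST14 (-0.25 ± 0.04) were among the 6 lower genes. Of 12 desmosome genes 9 were higher, with a median of 0.81. The desmosomal cadherin DSG3 had values of 2153, 2304 and 2332 at d10 and 10555, 10394 and 10274 at d15, a log2 fold change of 2.20 ± 0.03. Its partner DSC3 had values of 3603, 3692 and 3684 at d10 and 9728, 9711 and 9449 at d15. Desmoplakin, DSP, had values of 15381, 16354 and 15674 at d10 and 28988, 29360.0 and 28188 at d15. The 3 lower desmosome genes were the plakophilins PKP2 (-0.50 ± 0.05), PKP3 (-0.12 ± 0.03, 0.01 under quantile normalization) and PKP4 (-0.18 ± 0.03). PKP3 and PKP4 did not pass under that normalization.

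Of 18 genes of hemidesmosomes and the basement membrane anchor, 11 were higher and 6 lower with a median of 0.36. The laminin chains LAMA3 (-0.25 ± 0.02) and LAMB3 (-0.30 ± 0.02) fell by less than 2-fold, as did the integrins ITGA3 (-0.45 ± 0.02) and ITGA6 (-0.88 ± 0.02) and the linker PLEC (-0.44 ± 0.03). The laminin chains higher by 2-fold were LAMB1, LAMB2 and LAMA5. LAMB1 had values of 10506, 11032 and 10706 at d10 and 30105, 29675 and 29842 at d15, a log2 fold change of 1.48 ± 0.02, LAMB2 1.75 ± 0.03 and LAMA5 1.57 ± 0.03. ITGB4, the beta chain that pairs with ITGA6, had values of 37038, 38114 and 38031 at d10 and 86465, 82842 and 81384 at d15, a log2 fold change of 1.15 ± 0.02, and COL17A1 0.31 ± 0.02.

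Basal and stress keratins went from 229443 to 233098 in summed value at d10 to 562754 to 581762 at d15. Of 10 tested basal and stress keratins 7 were higher and 3 lower, with a median of 0.83. KRT17, a keratin of basal and stressed epithelium, had values of 13034, 14213 and 12669 at d10 and 186759, 181902 and 191369 at d15, a log2 fold change of 3.81 ± 0.03. At d15 it was above KRT5, another basal keratin, which had values of 102501, 100457 and 100869.9 at d10 and 178527, 173499 and 175401 at d15. These are normalized reads and not corrected for transcript length. KRT16 rose from 889, 926 and 788 at d10 to 6363, 6166 and 6319.9 at d15, a log2 fold change of 2.86 ± 0.04. KRT14 rose from 67769, 70434 and 67566 at d10 to 122899, 116002 and 118211 at d15, a log2 fold change of 0.80 ± 0.02. The hair keratin KRT81 rose from 80.6, 70.9 and 71.4 at d10 to 385, 351 and 413 at d15. None of these overlapped. KRT15 (-0.29 ± 0.06), KRT6B (-0.21 ± 0.09) and KRT80 (-0.87 ± 0.15) fell, KRT6B with overlapping libraries and not past the threshold without any one of 4 of the 6 libraries. KRT15 and KRT6B did not pass with all 21 libraries in the fit. KRT14, KRT16 and KRT17 and the KRT6 genes are near-identical in part and can share reads. The simple keratins split into KRT8 (1.17 ± 0.02) and KRT19 (0.80 ± 0.08) higher and KRT18 (-0.73 ± 0.03) and KRT7 lower, KRT7 with values of 92798, 85612 and 90072 at d10 and 40616, 39468 and 38062 at d15, a log2 fold change of -1.18 ± 0.03.

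Cornified envelope and squamous differentiation genes showed no balance to either side. Of 51 in the list, 27 were under the limit, and of the 24 tested 9 were higher and 8 lower with a median of 0.01. PPL, periplakin, had values of 579, 543 and 618 at d10 and 4341, 4199 and 4196 at d15, a log2 fold change of 2.87 ± 0.04, with ABCA12 (1.83 ± 0.07), CLIC3 (2.02 ± 0.11), ALOX12B (1.70 ± 0.32) and KLF4 (1.14 ± 0.05) also higher by 2-fold. IVL, involucrin, the main early scaffold of the cornified envelope, fell from 629, 693 and 723 at d10 to 234, 241 and 240.3 at d15, a log2 fold change of -1.51 ± 0.06, with SCEL (-1.46 ± 0.19), CDSN (-1.26 ± 0.14), CST6 (-1.20 ± 0.11) and SPRR1B (-1.09 ± 0.23). A list of kallikreins, serpins and related genes had 5 of 11 higher and 3 lower, against 41.4% and 41.7% of all genes. The rises were SERPINB3, SERPINB13, SLPI, SERPINB7 and SERPINB5 (0.16 to 2.00 on the log2 scale). The falls were KLK5, SERPINB1 and SERPINB2 (-0.36 to -1.92), so no kallikrein was called higher and only KLK5 lower. KLK5 was -0.28 and did not pass without one d10 library, and SERPINB5 did not pass with all 21 libraries in the fit. Of 9 tested antimicrobial and alarmin genes 6 were higher and 1, RNASE7 (-1.31 ± 0.06), lower, and the complement factor CFB led with 12.9, 9.72 and 14.7 at d10 and 185, 163 and 198 at d15, a log2 fold change of 3.78 ± 0.18.

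Immediate early genes divided into one group that rose and one that fell. Of 26, 15 were higher and 11 lower, 10 and 7 by at least 2-fold. FOS, a subunit of the AP-1 transcription factor, had values of 249.8, 256 and 242 at d10 and 2865, 2760.4 and 2568 at d15, a log2 fold change of 3.45 ± 0.05. EGR1 had values of 1571, 1543 and 1702 at d10 and 14345, 13705 and 12796 at d15, a log2 fold change of 3.08 ± 0.04. The phosphatase DUSP1 had values of 189, 212 and 181 at d10 and 2808, 2542 and 2582 at d15, a log2 fold change of 3.76 ± 0.05. JUN, the partner of FOS in AP-1, rose by little (0.30 ± 0.03). The 7 genes lower by 2-fold were FOSL1, with values of 2122, 1994 and 2129.7 at d10 and 445, 389.8 and 389 at d15, a log2 fold change of -2.35 ± 0.05, the ERK phosphatases DUSP4 (-2.34 ± 0.05), DUSP5 (-1.78 ± 0.06) and DUSP6 (-2.09 ± 0.04), the ERK pathway inhibitor SPRY4 (-1.74 ± 0.04), PHLDA1 (-1.76 ± 0.03) and EGR3 (-1.24 ± 0.32). In the ERBB family the receptors EGFR (0.90 ± 0.03), ERBB2 (0.57 ± 0.03) and ERBB3 were higher and the ligands TGFA (-0.94 ± 0.04), EREG (-0.36 ± 0.07), HBEGF (-1.27 ± 0.13), NRG1 (-1.37 ± 0.07) and NRG2 (-1.24 ± 0.27) lower, with the ligand AREG (0.81 ± 0.08) higher. The 12 tested members had a median of -0.16, which was 0.05 with a filter at a mean of 50, 0.17 without a filter and -0.34 under quantile normalization.

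NOTCH1 and NOTCH3, receptors for signals from neighbouring cells, rose by over 8-fold. Of 18 Notch ligands, receptors and targets, 12 were higher and 3 lower with a median of 0.65. NOTCH1 had values of 635, 720.0 and 650.3 at d10 and 7807, 7559.6 and 7673 at d15, a log2 fold change of 3.52 ± 0.04. NOTCH3 had values of 81.6, 78.7 and 75.3 at d10 and 1309.8, 1232 and 1300.0 at d15, a log2 fold change of 4.01 ± 0.07. Both were without overlap. Of the targets, HES2 (3.07 ± 0.06) and HEYL (2.72 ± 0.35) rose by more than HES1 (0.61 ± 0.06), and the ligands JAG1 (-0.36 ± 0.03) and DLL3 (-1.29 ± 0.27) and the receptor NOTCH2 (-0.17 ± 0.03, about 0 under quantile normalization) were the 3 lower members. In the WNT list 7 of 18 were higher and 5 lower. WNT4 had values of 8.96, 7.77 and 7.82 at d10 and 188, 189.9 and 162 at d15, a log2 fold change of 4.30 ± 0.18. WNT10A had values of 11.9, 13.6 and 11.7 at d10 and 142, 152 and 153 at d15. The feedback target AXIN2 had values of 11.9, 14.6 and 12.7 at d10 and 138, 140.2 and 122 at d15, a log2 fold change of 3.26 ± 0.18, while WNT10B (-2.69 ± 0.18), WNT7A (-1.03 ± 0.08) and DKK2 (-2.79 ± 0.41) fell by 2-fold.

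Of 21 ligands, receptors and feedback inhibitors of TGFβ, 14 were higher and 6 lower with a median of 0.33. TGFBR1 (0.65 ± 0.04) rose and TGFBR2 (-0.80 ± 0.03) fell, and the ubiquitin ligase SMURF2, which removes receptors, fell from 2464, 2509.9 and 2372 at d10 to 991, 1026 and 1010.0 at d15, a log2 fold change of -1.28 ± 0.04. SMAD7, the inhibitory SMAD, rose by little (0.27 ± 0.05). Of 18 genes of the ID family and BMP signalling, 9 were higher and 6 lower. ID3 rose from 817, 834 and 759 at d10 to 2267, 2163 and 2261 at d15, a log2 fold change of 1.47 ± 0.04, ID1 (0.46 ± 0.05) rose less, and the antagonists FST (-2.51 ± 0.07) and GREM1 fell with the ligand BMP6 (-2.12 ± 0.27). Targets of YAP and TAZ were lower in 14 and higher in 9 of 26, with CYR61 at -0.80 ± 0.02, CTGF at -0.11 ± 0.03 and the scarce ANKRD1 at 2.52 ± 0.25. CTGF was 0.02 under quantile normalization and did not pass (adjusted p = 0.54).

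Circadian and PAR bZIP genes were higher in 12 of 17 and lower in 3, with a median of 0.90. The member that rose most was TSC22D3, a leucine zipper gene induced by glucocorticoids and FOXO factors and not itself a PAR bZIP gene. Its values were 1809, 1977 and 1811 at d10 and 22883, 20910.4 and 21921 at d15, a log2 fold change of 3.55 ± 0.03. The clock output gene DBP rose from 8.96, 13.6 and 13.7 at d10 to 81.6, 71.5 and 82.9 at d15, and PER1 (1.23 ± 0.03), PER3 (1.23 ± 0.06) and TEF (1.36 ± 0.06) rose by over 2-fold. CRY1 (-0.68 ± 0.05), CLOCK (-0.31 ± 0.04) and BHLHE40 (-0.35 ± 0.04) were lower. The hours of harvest are not given in the sources used here.

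Of 31 inflammatory cytokines and chemokines, 19 were higher and 7 lower with a median of 0.80, which was 0.46 under quantile normalization. Both CSF2 and CSF3, colony-stimulating factors, fell. CSF3, G-CSF, had values of 757, 787 and 748 at d10 and 93.8, 77.8 and 76.7 at d15, a log2 fold change of -3.20 ± 0.08. CSF2 had values of 97.5, 123 and 89.0 at d10 and 6.12, 3.62 and 3.11 at d15. The chemokine CXCL14 rose from 3.98, 4.86 and 6.84 at d10 to 71.4, 78.7 and 84.9 at d15, a log2 fold change of 3.69 ± 0.25, and TSLP (2.34 ± 0.21) with it. IL6 had at most 3 reads in each of the 6 libraries, and IL8 had 19.9, 24.3 and 32.3 at d10 and 18.4, 29.9 and 25.9 at d15, overlapping, with a log2 fold change of -0.04 (adjusted p = 0.87). Interferon-stimulated genes were higher in 29 of 41 and lower in 6 with a median of 0.47. TRIM22 had values of 35.8, 52.5 and 42.0 at d10 and 644, 660.3 and 627 at d15, a log2 fold change of 3.87 ± 0.11. MX1 had values of 42.8, 45.7 and 25.4 at d10 and 133, 169 and 123 at d15, a log2 fold change of 1.90 ± 0.17, and ISG15 rose by less than 2-fold (0.52 ± 0.11) and did not pass with all 21 libraries in the fit. Of 17 genes of MHC class I antigen presentation 12 were higher and 4 lower with a median of 0.53. The peptide transporter TAP1 rose from 677, 775 and 706 at d10 to 2335, 2372 and 2376 at d15, a log2 fold change of 1.72 ± 0.04, and HLA-E (1.44 ± 0.03) and HLA-B (1.32 ± 0.03) rose more than B2M (0.57 ± 0.02), with reads that HLA genes can share.

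Lysosome genes were higher in 32 of 50 and lower in 11 with a median of 0.36, led by GPNMB (2.79 ± 0.18) and IDUA (2.58 ± 0.13), and CTSD, a lysosomal protease, had values of 2596, 2667 and 2607 at d10 and 5112, 4798 and 4909 at d15. Of 35 genes of ATF4 and the amino acid response, 22 were higher and 8 lower with a median of 0.26. NUPR1, a stress-induced chromatin regulator, had values of 1034, 1149.5 and 1119.6 at d10 and 6699, 6714 and 6798 at d15, a log2 fold change of 2.61 ± 0.03, and DDIT3 (1.80 ± 0.08) and ATF3 (1.74 ± 0.09) rose too, whereas ASNS (0.04 ± 0.03, adjusted p = 0.20) and CHAC1 (0.01 ± 0.07, adjusted p = 0.88) did not pass. ASNS passed as higher under quantile normalization (0.17, adjusted p = 7.42e-05), with equal library totals (0.11, adjusted p = 0.0015) and without one d10 library (0.07, adjusted p = 0.039). Of 38 genes of ER folding and secretion 21 were higher and 15 lower, with HSPA5, the main ER chaperone, at 20995, 21752 and 20980.5 at d10 and 21252, 21648 and 21473 at d15, a log2 fold change of 0.01 ± 0.02 (adjusted p = 0.55) and passing at 0.08 with equal library totals (adjusted p = 0.0011). Of 26 NRF2 antioxidant targets 12 were higher and 12 lower. The ferritin heavy chain FTH1 rose from 17433, 18158 and 17045 at d10 to 43449, 43585 and 43456 at d15, a log2 fold change of 1.31 ± 0.02. The peroxiredoxin PRDX1 fell from 11724, 11878 and 11482 at d10 to 3150.1, 3141 and 3182 at d15, a log2 fold change of -1.89 ± 0.03. The metallothionein MT2A fell from 67458, 72061 and 71931 at d10 to 21261, 17011 and 20327 at d15, a log2 fold change of -1.86 ± 0.04, with MT1G (-1.59 ± 0.27), and MT1X (1.10 ± 0.05) and MT1F (0.64 ± 0.17) rose, MT1F not passing under quantile normalization. Smooth muscle contractile genes were higher in 14 and lower in 14 of 28, with TAGLN at 593, 579 and 518 at d10 and 2806, 2826 and 2829 at d15, a log2 fold change of 2.32 ± 0.04, and ACTA2 at 1.42 ± 0.06. KRAB zinc finger genes were higher in 22 and lower in 9 of 38 with a median of 0.22 that was 0.12 under quantile normalization. Of 18 mammary lineage transcription factors 11 were higher and 6 lower. TP63 (0.57 ± 0.03), the master factor of basal epithelium, and TRIM29 (2.35 ± 0.03) rose. SOX9 (-2.86), also counted with the EMT factors, fell most, and ESR1 (-1.19 ± 0.25), TBX3 (-1.26 ± 0.06) and CITED1 (-1.03 ± 0.32) fell too. ELF5 had no read in the 6 libraries.

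Markers of the labelled cell type were present. All 11 mammary basal markers passed the limit, 9 were higher and 2, ITGA6 and LAMB3, lower, with a median of 0.80, and their summed value was 363225 to 371745 at d10 and 702462 to 726548 at d15. Of 16 luminal markers 9 were tested, 4 higher and 5 lower, with sums of 99573 to 107049.6 at d10 and 55594 to 58496 at d15. Of 15 immune markers 4 were tested and 3, CD14, CD68 and CSF1R, were higher, CD14 not passing under quantile normalization (0.54, adjusted p = 0.14), with sums of 762 to 904 at d10 and 1544 to 1608 at d15, and the defining PTPRC had at most 1 read in any library. Of 9 endothelial markers 3 were tested, with sums of 48.6 to 58.7 at d10 and 290.1 to 315 at d15, of which KDR made up nearly all at d15, while PECAM1 had values of 13.9, 13.6 and 16.6 at d10 and 7.14, 11.8 and 8.29 at d15 and did not pass (adjusted p = 0.06). PECAM1 passed as lower without one d15 library (-0.85, adjusted p = 0.035) and under quantile normalization (-1.37, adjusted p = 0.00088). Of 11 fibroblast and pericyte markers 8 were tested, 7 higher and 1, THY1 (-0.18 ± 0.03), lower, which was -0.02 and did not pass under quantile normalization (adjusted p = 0.52), with a median of 1.58 and sums of 10229 to 10611 at d10 and 16539 to 17627 at d15. COL1A1 and COL3A1 belong to that list and to the collagens, and the part of other cells in these results was not tested.

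The signature genes that the study took from basal epithelial cells of breast tumours gave 91 tested genes, of which 54 were higher and 33 lower, 24 and 9 by at least 2-fold, with a median of 0.32. Its clusters over the time course were read from these libraries, so its direction here is not independent evidence. KRT17 led the rises, and FBXO32, a ubiquitin ligase of atrophying muscle, had values of 82.6, 123 and 83.1 at d10 and 919, 956 and 934 at d15, a log2 fold change of 3.29 ± 0.10. ITGB1 (-0.24 ± 0.02) and ACTN1 (-0.44 ± 0.02) were lower by less than 2-fold.

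Most of the genes that changed 2-fold had an extreme of the time course at d10 or d15. Of the 1646 genes at least 2-fold higher at d15, 1121 (68.1%) had their highest mean of all 7 timepoints at d15 and 1053 (64.0%) their lowest at d10. Of the 1353 at least 2-fold lower, 1105 (81.7%) had their lowest mean at d15 and 858 (63.4%) their highest at d10. Over all genes tested, 23.5% were highest and 25.6% lowest at d15, and 21.3% highest and 17.5% lowest at d10. These shares follow in part from choosing genes by the same libraries and from choosing the timepoints as extremes of the proliferation-linked axis, and are given as a description. The plot of list medians by day shows the S-phase list at 0.12 above d0 at d10, 1.99 below it at d15 and 0.19 below it at d20 on the log2 scale. The mesenchymal list lay 1.61, 1.73 and 1.91 above d0 on days 10, 15 and 20, and the basal keratins at -1.31, 0.09 and -0.90. At d7 the basal keratins lay at 0.10, so their level at d15 was not particular to that day.

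**Figure D3:**
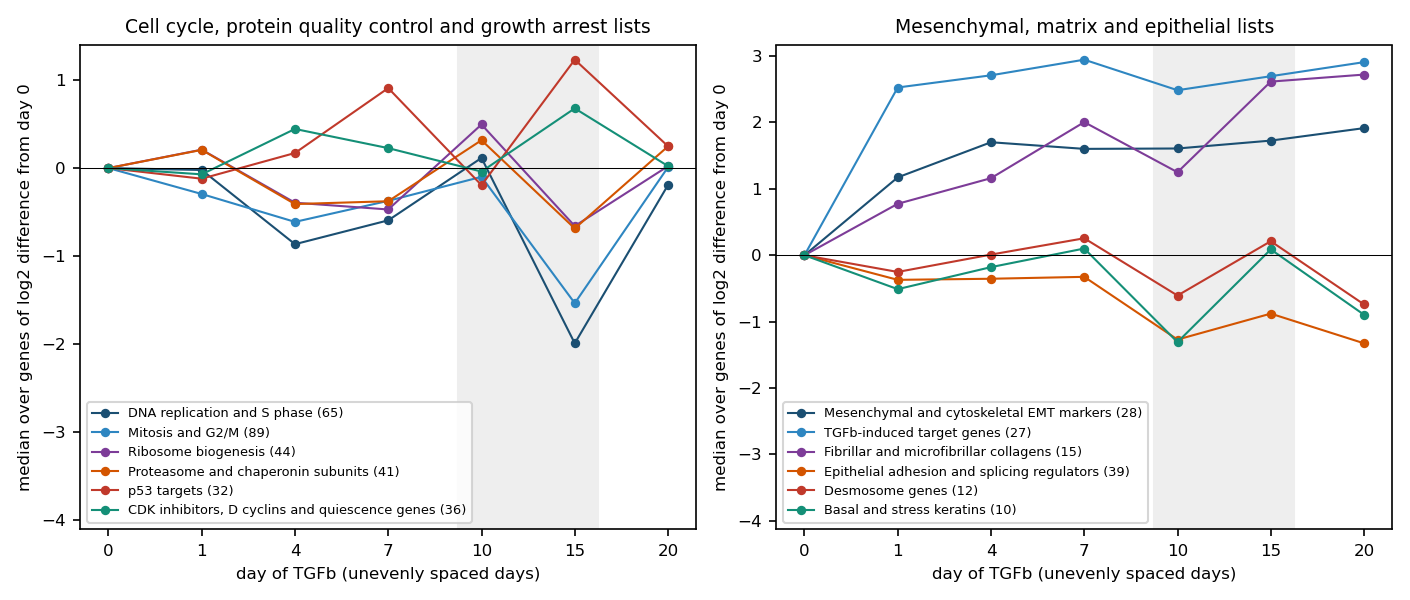
Lines give the median over the genes of a list (number in brackets) of the log2 difference of each day's mean from d0, with days drawn at even spacing and d10 and d15 shaded. S-phase and mitosis medians are lowest at d15, at -1.99 and -1.54, while mesenchymal markers stay between 1.17 and 1.91 from d1 on. The median of p53 targets is 1.23 at d15 and 0.91 at d7, where 1 library stands apart. In mean log2(value + 1), that library had 9.42 for p53 targets, the other d7 libraries 10.41 each and the d15 libraries 10.41 to 10.42. d10 and d15 were chosen as extremes of the proliferation-linked axis, so the place of the cell cycle lists at d15 restates that choice.

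Libraries not used in the comparison are described beside it. As background, 12.3% of all genes tested at d15 against d10 were higher and 10.2% lower by at least 2-fold. S-phase genes were lower at d4 than at d1 too (median -0.87). Genes shared through the proliferation-linked axis, by which d10 and d15 were chosen, and genes shared otherwise cannot be told apart here. For d4 against d1, by the same test on its own 6 libraries, 548 genes (4.14%) were higher and 258 (1.95%) lower by at least 2-fold. Of the 548, 451 (82.3%) were among the 1646 genes higher at d15 than at d10 (27.4% of those), and 3 among the 1353 lower. Of the 258, 201 (77.9%) were among the 1353 lower genes (14.9% of those), and 4 among the 1646 higher. For d20 against d0, 993 genes (7.45%) were higher and 686 (5.15%) lower. Of these 993, 171 (17.2%) were among the higher and 200 (20.1%) among the lower genes of d15, and of the 686, 267 (38.9%) were among the higher and 42 (6.12%) among the lower ones.

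List medians differed between these contrasts. The S-phase median was -0.87 at d4 against d1 and -0.19 at d20 against d0, where 23 and 1 of 65 genes were lower by 2-fold. Histones had 1.04 and -0.12, circadian genes 0.96 and -0.04, and proteasome and chaperonin subunits -0.59 and 0.25. Ribosomal proteins had -0.12 at d4 against d1, opposite in sign to 0.31 at d15 against d10. At d20 against d0, TGFβ-induced targets had a median of 2.91, mesenchymal markers 1.91, collagens 2.72 and epithelial adhesion genes -1.34, against -0.00, -0.08, 1.20 and 0.41 at d15 against d10. The plot of list medians shows these pairs of values for 46 lists.

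**Figure D4:**
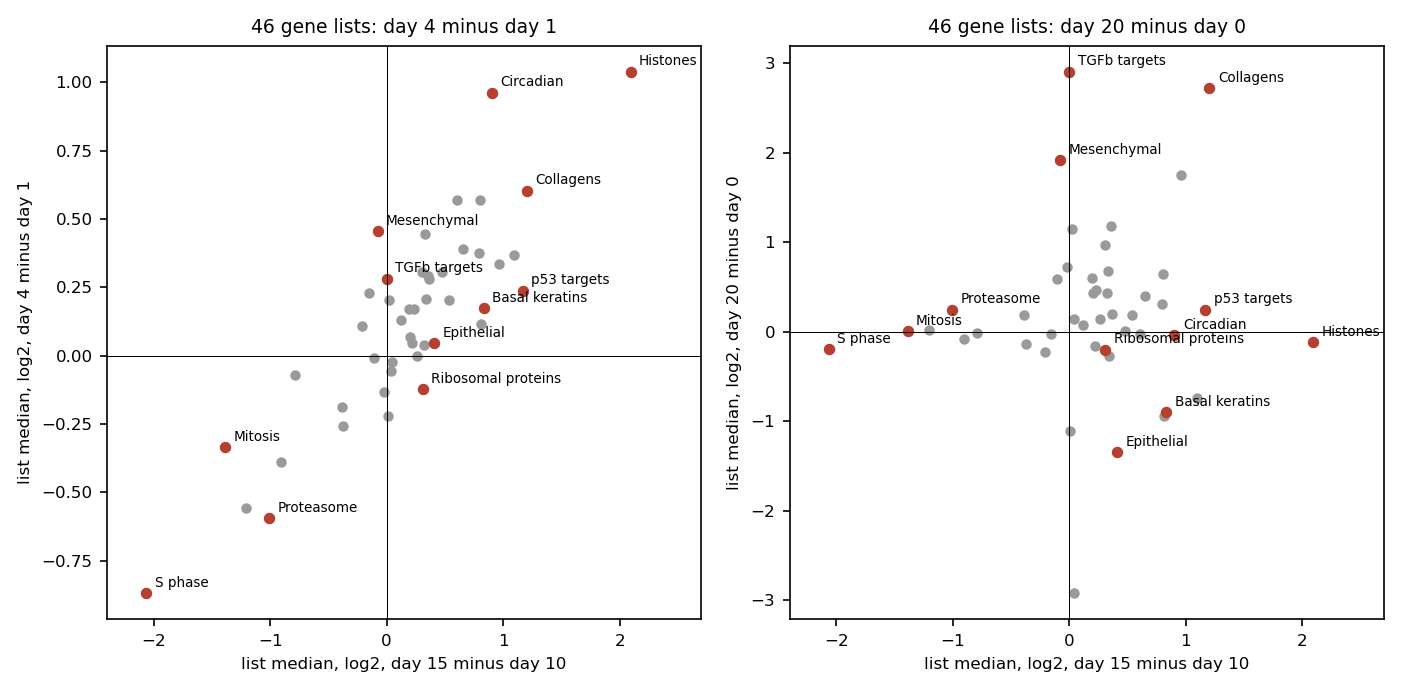
Each point is 1 of 46 lists with at least 9 genes tested, placed by its median log2 difference at d15 against d10 (horizontal) and at d4 against d1 (left) or d20 against d0 (right), 3 libraries a timepoint and no library shared between the axes. On the left S phase lies at -2.06 and -0.87 and collagens at 1.20 and 0.60, and on the right TGFβ targets lie at -0.00 and 2.91.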

How the data were processed

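Total RNA of HMLE cells at 7 timepoints of TGFβ treatment was extracted with TRIzol and sequenced, with 3 libraries a timepoint. The deposited table holds a normalized signal for 23201 gene symbols: the authors divided whole read counts by one size factor per library and rounded to 2 decimals, and whole reads were recovered for 100.0% of values within 0.005. The submitters' processing notes name STAR 2.7, Salmon 1.4 and hg19 without their roles. The strand setting, the selection of RNA and the gene annotation are not given in the sources used here. Intervals and floors cover counting error only.

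The 3 columns headed d15 were compared with the 3 headed d10 for genes with a mean of at least 10 over these 6, on log2(value + 1) by limma 3.58.1 in R 4.3.3. Calls needed a Benjamini-Hochberg adjusted p under 0.05 over all genes tested. d4 against d1 and d20 against d0 were fitted in the same way on their own libraries. Named genes were the 12 largest rises and falls without overlap whose mean reached 50 at d10 or d15, preset genes and the 4 largest changes of each list, and genes that complete a count of 5 or fewer. Members and lists were chosen with earlier results of these data known, and further genes of a list were named after their values were seen. Some genes are not reported here. A gene with no read in one group was set against a floor of 3 reads per library. Other filters, pseudocounts, scalings, fold limits and left-out libraries were tried, as were edgeR 4.0.16 and DESeq2 1.42.0 on the recovered reads. The scripts were tested on simulated data, where limma called 95 of 100 genes changed 2-fold and 100 of 100 changed 4-fold, with 11 unchanged genes called, of 13325.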

Additional observations from a re-analysis of the deposited data

How the results depend on the processing

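Of 304 recomputed values of 20 counts over all genes and over lists, 298 stayed within 1.5 times of the reported count. With a filter at a mean of 50, 1060 genes were at least 2-fold higher and 1183 lower at d15, from fewer genes tested. Under quantile normalization 1416 were higher and 1528 lower by at least 2-fold. The excess of 2-fold rises over falls did not hold in either setting. Without a minimum fold the counts were 5516 higher and 5557 lower, and with 1.5-fold they were 2969 higher and 2763 lower. With all 21 libraries in the fit, 1 basal keratin was lower in place of 3, and the cause was not tested. edgeR called 5614 genes higher and 5510 lower, DESeq2 5245 and 5224, and equal library totals 5974 and 5102.

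Of 4269 recomputed fold changes of 287 named genes, 4204 kept their direction and side of the threshold, 43 no longer passed, 6 newly passed and 16 changed sign, in 26 genes in all. Quantile normalization turned SNAI2 to 0.14, RPS15 to 0.10, CTGF to 0.0224, PKP3 to 0.0141, NOTCH2 to 0.0050, FN1 to 0.00 and HSPA5 to -0.0103. Equal library totals turned SNAI2 to 0.0332, CDH2 to 0.0237, IL8 to 0.0217 and RPL27 to 0.0112. Leaving out 1 library each gave IL8 -0.20 to 0.15 and CHAC1 -0.0319 to 0.077. No paired analysis was possible because column headers give timepoints without a replicate number. Genes with few reads at d10 or d15 are limited by depth, and the culture age of the cells cannot be told apart from the days of TGFβ.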
